A study of Caenorhabditis elegans with 6 samples.

Results

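The furrow collagen genes of *Caenorhabditis elegans* were followed here, dpy-2, dpy-3, dpy-7, dpy-8, dpy-9 and dpy-10, all of which are needed for the annular furrows of the cuticle. They were chosen with their ratios on these arrays known, and their probes were found through the sequence name of each spot: T14B4.6 (dpy-2), EGAP7.1 (dpy-3), F46C8.6 (dpy-7), C31H2.2 (dpy-8), T21D12.2 (dpy-9) and T14B4.7 (dpy-10). They were 6 of 18345 genes on the array. Each had 1 probe, so 6 of 22490 gene probes were theirs, and all 6 were among the 11033 probes bright enough to be tested. By the RefSeq annotation of assembly WBcel235, dpy-3, dpy-7 and dpy-8 lie on chromosome X, dpy-9 on IV, and dpy-2 and dpy-10 on II, where these last are neighbours with 3 annotated genes and 0 protein coding genes between them.

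The cuticle is a coat of collagens that the epidermis secretes and replaces at each moult. The furrows are the ring-shaped grooves that run around the body, and loss of any of these collagens removes the grooves and leaves the worm short and fat, the phenotype called dumpy. The transcripts of the furrow collagens are known to come early in each round of cuticle synthesis, before those of collagens such as dpy-13 and sqt-1. Loss of furrows is also known to switch on genes of the osmotic response, of detoxification under SKN-1 and of epidermal antimicrobial peptides, so these gene groups were described beside the collagens.

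The tested worms were the wild type strain N2 grown on agar with 0.5 mg/l of the organophosphorus pesticide chlorpyrifos (CPF), and the control worms were N2 grown on agar with the same amount of its solvent, acetone. Both were raised from synchronised eggs at 24 °C on *Escherichia coli* OP50, and were labelled as 72 h old and of stage L3 or L3/L4. A shorter time to late L3 stands in the methods, and the age is not settled by the files. Worms of several dishes were pooled into each RNA sample, and each of 6 arrays carried a CPF sample beside a control sample. The dye of the CPF sample was Cy5 on 3 arrays, named CPF in Cy5, and Cy3 on the other 3, named CPF in Cy3.

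The share of gene probes above local background ranged from 35.2% to 56.1% per Cy3 channel and from 38.3% to 53.4% per Cy5 channel, and with 6 arrays the precision of each value is limited. The array CPF in Cy3 replicate 1 stood apart: the SD of the log2 ratios over all tested probes was 0.90 there, against 0.424 to 0.468 on the other arrays. All arrays with CPF in Cy3 were scanned ahead of those with CPF in Cy5, so the slides, the animals and the dye orientation cannot be told apart. Log2 ratios of whole arrays correlated across probes at 0.283 to 0.681 between arrays of the same orientation and at 0.0170 to 0.504 between arrays of opposite orientation.

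Of the furrow collagens, dpy-3 had more signal in the CPF channel on every array, and its fitted log2 ratio of CPF over control was 0.87 ± 0.10 (SE, n = 6 arrays), a fold of 1.83. The other members lay nearer to 0, with dpy-10 at 0.28 ± 0.11, dpy-8 at 0.21 ± 0.14, dpy-9 at 0.08 ± 0.12, dpy-7 at 0.05 ± 0.11 and dpy-2 at 0.03 ± 0.13 (SE, n = 6 arrays each). Every SE given here is that of the fit, in which a term for the dye takes out the difference between orientations. The plain SD over the 6 arrays ran from 0.27 for dpy-9 to 0.66 for dpy-10, with 0.46 for dpy-3. The median over the 6 genes was 0.14, or 0.08 without dpy-3, beside 0.02 over all tested probes. These signs follow the labels of the scanner files. The deposited table of ratios opposes them: each of its columns matched the array of the other dye orientation and the same replicate number, and by the labels of that table every sign of CPF over control would turn.

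The 6 genes were picked from this contrast, so their ratios are given as a description without a test. In limma with Benjamini-Hochberg adjustment over all tested probes at 0.05, 386 of 11033 probes (3.5%) were called, 147 (1.33%) higher and 239 (2.17%) lower in CPF. The split turned on scaling, with 4 higher and 50 lower after median centring within arrays, and 760 higher and 521 lower after scale normalisation between arrays. Among the members, 1 of 6 was called, dpy-3, in the higher direction, and nothing is read from that count. All 6 fitted ratios were above 0, as were 53.3% of all tested probes. In RNA of whole worms, fewer cells of a type and less RNA per cell cannot be told apart.

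The ratios of the members differed by dye orientation. The dpy-3 probe had log2 ratios of 0.34, 0.42 and 0.65 on CPF in Cy5 replicates 1 to 3, and of 1.16, 1.36 and 1.29 on CPF in Cy3 replicates 1 to 3. All 6 arrays were positive, as for 8.45% of all tested probes, but every CPF in Cy3 array was above every CPF in Cy5 array. The mean was 0.47 ± 0.16 with CPF in Cy5 and 1.27 ± 0.10 with CPF in Cy3 (SD, n = 3 arrays each).

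The dpy-10 gene, known for mutations that make worms dumpy or rolling, had the widest swing. Its log2 ratios were -0.54, -0.26 and -0.13 on the CPF in Cy5 arrays and 1.01, 0.87 and 0.71 on the CPF in Cy3 arrays. The control channel was thus the brighter on 3 arrays and the CPF channel on 3, split exactly by dye orientation. Its orientation means were -0.31 and 0.86, and its SD over the 6 arrays was 0.66, the largest of the members.

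The dpy-7 gene, whose promoter is widely used to drive genes in the epidermis, had log2 ratios of -0.56, -0.37 and -0.08 with CPF in Cy5 and of 0.41, 0.33 and 0.59 with CPF in Cy3. The dpy-2 gene, the neighbour of dpy-10, had -0.58, -0.39 and -0.02 with CPF in Cy5 and 0.04, 0.44 and 0.70 with CPF in Cy3. Both split by orientation in the same way as dpy-10, with orientation means of -0.34 and 0.44 for dpy-7 and of -0.33 and 0.39 for dpy-2. Negative ratios on all 3 CPF in Cy5 arrays with positive ratios on all 3 CPF in Cy3 arrays were found for 3 of the 6 members and for 277 of all tested probes (2.51%). Taken singly, ratios were negative on all 3 CPF in Cy5 arrays for 3 of 6 members (20.5% of all tested probes) and positive on all 3 CPF in Cy3 arrays for 4 of 6 (25.4%).

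The remaining collagens, dpy-9 and dpy-8, varied less cleanly. The log2 ratios of dpy-9 were -0.24, -0.14 and 0.20 with CPF in Cy5 and -0.07, 0.24 and 0.48 with CPF in Cy3. Those of dpy-8 were -0.35, 0.41 and 0.12 with CPF in Cy5 and -0.08, 0.47 and 0.66 with CPF in Cy3. For both, the orientations overlapped and their means differed by less than for the other members, at -0.06 and 0.22 for dpy-9 and at 0.06 and 0.35 for dpy-8. The plot of the ratios by array shows dpy-2, dpy-3, dpy-7 and dpy-10 lower on every CPF in Cy5 array than on any CPF in Cy3 array.

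**Figure D1:**
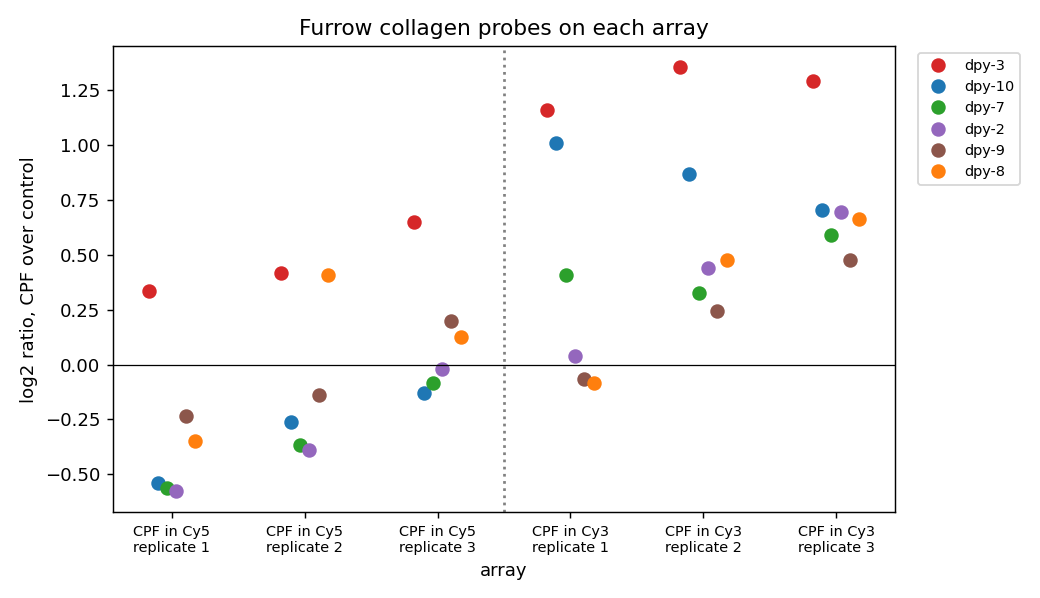
Log2 ratio of CPF over control (vertical axis) of the 6 furrow collagen probes on each of the 6 arrays (horizontal axis), with a dotted line between the CPF in Cy5 and the CPF in Cy3 arrays and 1 point per probe. The dpy-3 points run from 0.34 to 1.36 and are the highest on every array, while dpy-2, dpy-7 and dpy-10 are below 0 on every CPF in Cy5 array and above 0 on every CPF in Cy3 array.

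Array by array, the median of the 6 genes was -0.44, -0.20 and 0.05 on the CPF in Cy5 arrays and 0.22, 0.46 and 0.68 on the CPF in Cy3 arrays. The number of members with a positive ratio was 1, 2 and 3 of 6 with CPF in Cy5 and 4, 6 and 6 of 6 with CPF in Cy3. The median over all tested probes was -0.014, 0.0065 and 0.013 on the CPF in Cy5 arrays and 0.097, 0.0056 and -0.0054 on the CPF in Cy3 arrays. The dpy-3 ratio exceeded the median of the other members by 0.63 to 1.12 on every array. That distance varied over a smaller range than the dpy-3 ratio itself, which ran from 0.34 to 1.36.

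Each array gave a level in both channels, as normalised log2 intensity, and these levels showed how faint the dpy-3 signal was. The dpy-3 levels were 8.69, 9.07, 8.49, 7.90, 9.08 and 8.60 in the CPF channel and 8.36, 8.66, 7.84, 6.74, 7.73 and 7.30 in the control channel, CPF in Cy5 replicates before CPF in Cy3 replicates. They averaged 8.64 ± 0.439 in CPF and 7.77 ± 0.695 in control (SD, n = 6 arrays), and the ranges overlapped. The CPF channel was above local background on 6 of 6 arrays and the control channel on 4 of 6, not on CPF in Cy5 replicate 3 and CPF in Cy3 replicate 1. The median brightness of the dpy-3 spot was 1.05 to 3.65 times its local background, so its ratio rests on dim spots.

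The other probes were above background in both channels of all 6 arrays. The dpy-10 levels averaged 11.9 ± 0.563 in CPF and 11.6 ± 0.342 in control, those of dpy-8 averaged 11.3 ± 0.874 and 11.1 ± 0.848, and those of dpy-9 averaged 11.9 ± 0.651 and 11.8 ± 0.731, in the same order (SD, n = 6 arrays). For dpy-7 the levels were 11.4 ± 0.597 in CPF and 11.3 ± 0.430 in control, and for dpy-2 they were 11.4 ± 0.572 in CPF and 11.3 ± 0.483 in control. For all 6 genes the CPF levels overlapped the control levels. Every CPF level above every control level was seen for 3 of all tested probes (0.0272%) and for 0 of the members.

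**Figure D2:**
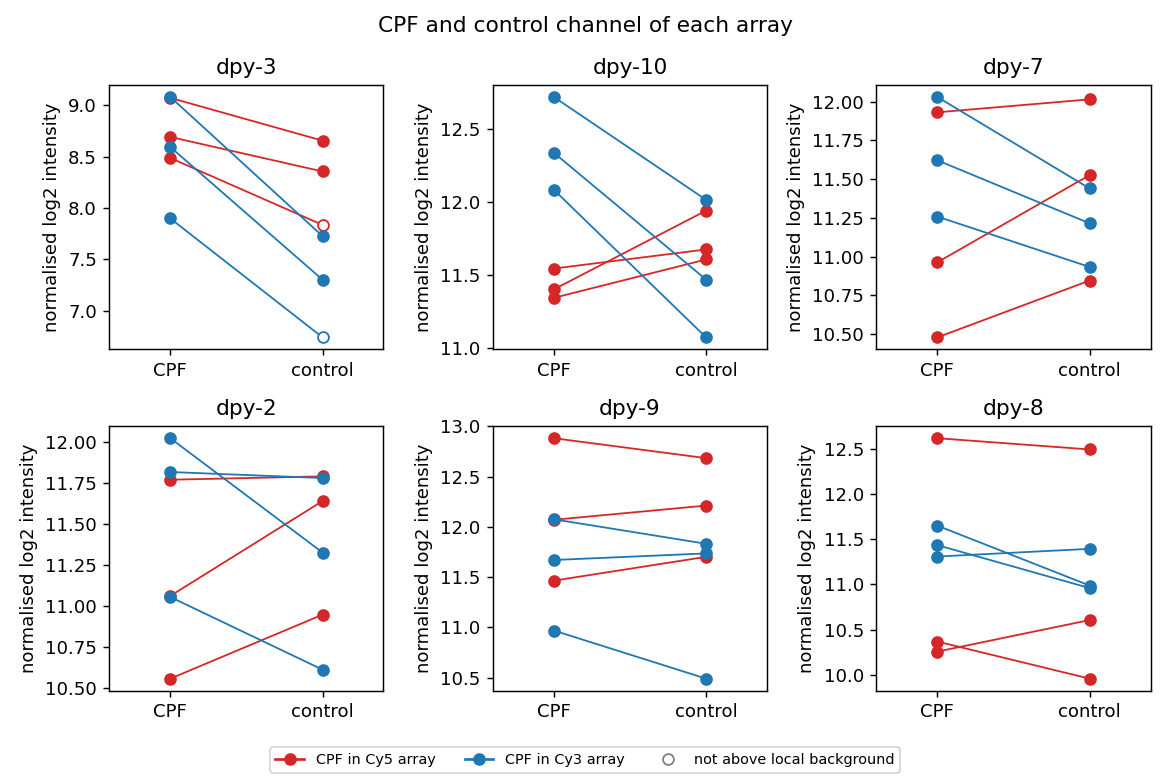
Normalised log2 intensity (vertical axes, each with its own range) of the CPF and the control channel for each furrow collagen probe, with a line joining the channels of an array, red for CPF in Cy5 and blue for CPF in Cy3, and open points for spots not above local background. All lines of dpy-3 fall towards the control side, and those of dpy-2, dpy-7 and dpy-10 fall on the 3 CPF in Cy3 arrays and rise on the 3 CPF in Cy5 arrays.

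The fit held a dye term beside the CPF term, given here as log2 Cy5 over Cy3. It was below 0 for all 6 members, as for 53.4% of all tested probes, with a median of -0.37 over the members and -0.02 over all tested probes. The lowest was that of dpy-10, at -0.59 ± 0.11 (SE, n = 6 arrays), and only 1.47% of tested probes had a lower one. It was -0.40 ± 0.10 for dpy-3, -0.39 ± 0.11 for dpy-7, -0.36 ± 0.13 for dpy-2, -0.14 ± 0.14 for dpy-8 and -0.14 ± 0.12 for dpy-9 (SE, n = 6 arrays each).

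For dpy-10, dpy-7, dpy-2 and dpy-9 the dye term was larger in size than the CPF term, and for dpy-3 and dpy-8 it was smaller. In limma with Benjamini-Hochberg adjustment, 0 of 6 members and 1 of 11033 probes passed 0.05 for the dye term (0.00906%). For the dye term, 4 of 6 members (dpy-2, dpy-3, dpy-7 and dpy-10) had an unadjusted p under 0.05, all with less signal in Cy5, against 9.89% of all tested probes in either direction and 5.93% with less signal in Cy5. The term comes from the same ratios, which were known when the members were picked, so nothing is read from that count. Nor can it be told apart from the slides and the animals. On CPF in Cy3 replicate 1, the array that stood apart, the ratios of dpy-2, dpy-3, dpy-8 and dpy-9 were the lowest of the CPF in Cy3 arrays, that of dpy-7 was in the middle and that of dpy-10 was the highest.

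**Figure D3:**
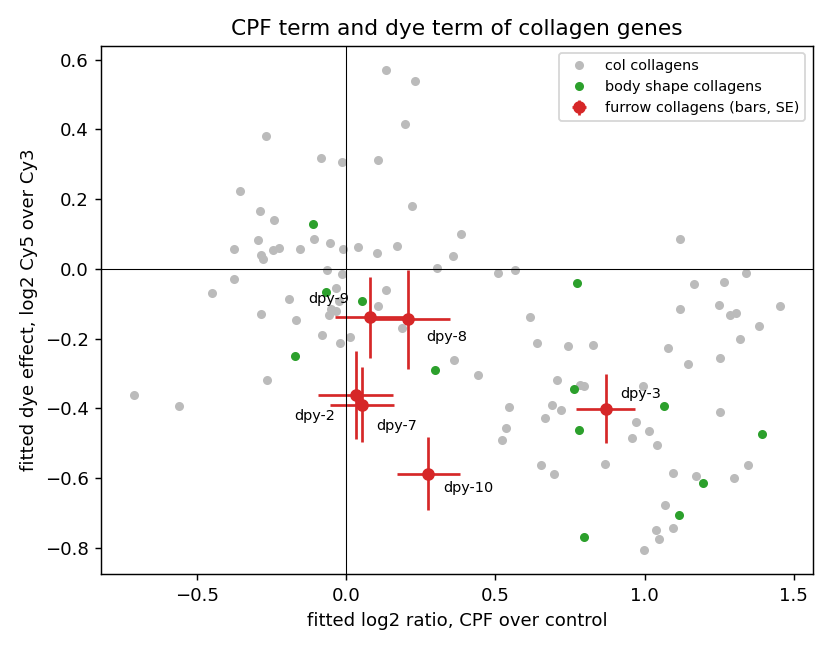
Fitted dye effect as log2 Cy5 over Cy3 (vertical axis) against the fitted log2 ratio of CPF over control (horizontal axis) for the furrow collagens (red, bars are SE), the other collagens named for body shape (green) and the col genes (grey), 1 point per gene. The members lie at dye effects of -0.59 to -0.14, and dpy-3 alone of them lies beyond a ratio of 0.28.

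Whether the members moved together was described by Pearson's r of their log2 ratios over the 6 arrays, points that share the dye orientation and slide series in groups of 3. The median over the 15 pairs was 0.76, and it was 0.76 over the 10 pairs without dpy-3. The closest pairs were dpy-3 with dpy-7 and dpy-3 with dpy-10, both at 0.96, and dpy-7 with dpy-10 at 0.94. The loosest was dpy-8 with dpy-10 at 0.41, and dpy-2 with its neighbour dpy-10 stood at 0.80.

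Against the mean of the other members, r was 0.96 for dpy-2, dpy-3 and dpy-7, 0.83 for dpy-10, 0.80 for dpy-9 and 0.60 for dpy-8. With each orientation centred on its own mean, the median over the member pairs was 0.69, or 0.59 without dpy-3. Without CPF in Cy3 replicate 1 it was 0.95, or 0.90 without dpy-3. Within orientation the closest pair was dpy-2 with dpy-9, at 0.996, while dpy-10 stood at 0.040 with dpy-2, 0.031 with dpy-8 and near 0 with dpy-9. Without CPF in Cy3 replicate 1, over 5 arrays of both orientations, dpy-10 stood at 0.95 with dpy-2, 0.79 with dpy-8 and 0.85 with dpy-9.

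Other collagens were less alike. The median r over the 6 arrays was 0.36 for the 78 pairs of 13 collagens named for body shape, 0.22 for the 4656 pairs of 97 col genes and 0.011 over all pairs of tested probes. Within orientation these medians were 0.44, 0.37 and 0.023, and without CPF in Cy3 replicate 1 they were 0.35, 0.18 and 0.0052. The differences between these medians were not tested.

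The mean level of both channels, in which the CPF ratio takes no part, gave another order. Its r over the 6 arrays was 0.88 for dpy-2 with dpy-7, 0.86 for dpy-7 with dpy-8 and 0.66 for dpy-2 with dpy-8, but -0.79 for dpy-2 with dpy-3 and -0.75 for dpy-9 with dpy-10. The median over the 15 pairs was 0.15, and 7 pairs were below 0. The same median was 0.089 for the body shape collagens, 0.20 for the col genes and -0.012 for all tested probes.

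So the likeness of the ratios did not extend to the levels of all members. Between arrays the mean level of dpy-8 ranged over 2.39 log2 units, from CPF in Cy5 replicate 2 at 10.2 to CPF in Cy5 replicate 3 at 12.6. That of dpy-9 ranged over 2.05, with its highest value also on CPF in Cy5 replicate 3. The SD over arrays was 0.840 for dpy-8 and 0.679 for dpy-9, against 0.327 for dpy-10 and a median of 0.544 over all tested probes.

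**Figure D4:**
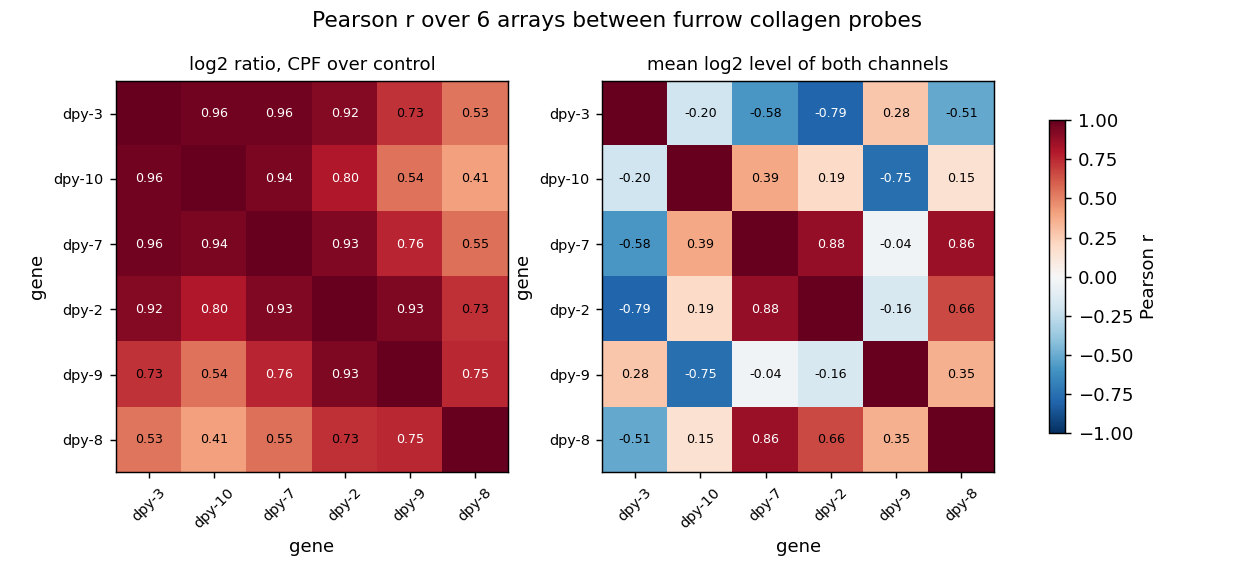
Pearson's r over the 6 arrays for each pair of furrow collagen probes (both axes list the genes), on the left for the log2 ratio of CPF over control and on the right for the mean log2 level of both channels, in red above 0 and blue below 0. The ratios give 0.41 to 0.96, all above 0, and the levels give -0.79 to 0.88.

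Over 11027 other probes, those most like the mean of the members were div-1 (r = 0.997), daf-19 (0.994), ttc-37 (0.993), syp-5 (0.988) and unc-40 (0.985), each over 6 arrays. Of all probes compared, 136 (1.23%) had an r over 0.9. Their fitted log2 ratios ran from -0.06 for unc-40 to 0.29 for syp-5, so they shared the swing and little net difference. Most like dpy-3 were tnt-4 (0.992), mrpl-37 (0.991), F40A3.3 (0.988), ptr-10 (0.988) and acn-1 (0.987), with 162 probes (1.47%) over 0.9. Their log2 ratios ran from 0.01 for acn-1 to 0.50 for tnt-4, all below the 0.87 of dpy-3, and the lists hold no other collagen.

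The other collagens named for body shape had a median log2 ratio of 0.77, against 0.14 for the furrow collagens. Of 13 tested, 0 were called in limma, 8 were higher at an unadjusted p under 0.05 (15.9% of all tested probes) and 10 had a fitted ratio above 0 (53.3% of all tested probes). The largest were bli-6, a collagen whose mutants have blisters, at 1.39 ± 0.33 (adjusted p = 0.0576), and dpy-13, a dumpy collagen outside the furrow set, at 1.2 ± 0.29 (adjusted p = 0.0613; SE, n = 6 arrays each). Both were positive on all 6 arrays, like dpy-3.

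These values leaned on CPF in Cy3 replicate 1, where the median of the body shape collagens was 2.65 and that of the furrow collagens 0.22. Without that array the body shape median was 0.38. Their dye effect, with a median of -0.34 and 12 of 13 below 0, was close in size to the -0.37 of the furrow collagens. Negative ratios on all CPF in Cy5 arrays with positive ratios on all CPF in Cy3 arrays were found for 0 of the 13. The share was 2.51% over all tested probes, and 3 of the 6 members had this pattern.

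Among 97 tested col genes, 3 (3.09%) were called higher, against 1.33% of all tested probes, and 0 were called lower. At an unadjusted p under 0.05, 44 of the 97 were higher and 7 were lower, against 15.9% and 11.5% of all tested probes. These were col-138 at 1.35 ± 0.25 (adjusted p = 0.0336), col-73 at 1.3 ± 0.28 (adjusted p = 0.0478) and col-65 at 0.67 ± 0.14 (adjusted p = 0.0443; SE, n = 6 arrays each, limma). The median over the 97 was 0.39, or 0.26 without CPF in Cy3 replicate 1. Each of the 3 calls was lost when any CPF in Cy5 array or CPF in Cy3 replicate 2 was left out. Near-identical collagen genes can share a probe's signal, so single col values are uncertain.

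Genes that act on collagens or build the coat around them were not called in limma. Of 12 tested processing enzymes 0 passed and 1 had an unadjusted p under 0.05, against 27.3% of all tested probes, with a median of -0.10, and those with the smallest p were mlt-7, a peroxidase of the cuticle, at -0.33 (adjusted p = 0.169), and tsp-15, a tetraspanin needed for collagen crosslinking, at -0.19 (adjusted p = 0.296). Of 17 apical matrix and moulting genes 0 passed and 6 had an unadjusted p under 0.05, with a median of 0.0041, mlt-8 at 0.85 ± 0.19 (adjusted p = 0.0532) and noah-1 at 0.56 ± 0.15 (adjusted p = 0.0702). Of 7 regulators of moulting and epidermis 0 passed and 1 had an unadjusted p under 0.05, among them the kinase gene nekl-3 at -0.40 (adjusted p = 0.100) and the nuclear receptor gene nhr-25 at -0.28 (adjusted p = 0.192).

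Body size is also set by TGF-beta signalling, and 0 of its 10 tested genes passed, with a median of -0.21. In limma, 5 had an unadjusted p under 0.05, against 27.3% of all tested probes. Of these, 1 was higher and 4 were lower, against 15.9% and 11.5% of all tested probes. The smallest p were those of lon-1, a target that limits length, at 0.74 ± 0.19 (adjusted p = 0.0703), and of the receptor-binding sma-10 at -0.57 ± 0.16 (adjusted p = 0.0783; limma, n = 6 arrays). Counts at an unadjusted p under 0.05 for all tested probes in the higher direction were 1749 (15.9%), and 2 of the 6 furrow collagens, dpy-3 and dpy-10, were among them. The members were picked with their ratios known, so nothing is read from their count, and dpy-10 was negative on 3 of its 6 arrays.

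Among the responses known to follow loss of furrows, genes were called only in the lower direction. Of 8 osmotic response genes 0 were called in limma and 1 had an unadjusted p under 0.05, against 27.3% of all tested probes. Their median was -0.15, with the glycerol synthesis gene gpdh-2 at -0.27 (adjusted p = 0.147) and the inositol transporter gene hmit-1.3 at -0.27 (adjusted p = 0.197). Of 7 SKN-1 targets 0 were called higher and 2 were called lower, against 2.17% of all tested probes, while 1 was higher and 3 were lower at an unadjusted p under 0.05. These were the glutathione transferase genes gst-7 at -1.18 ± 0.15 (adjusted p = 0.00901) and gst-38 at -0.56 ± 0.11 (adjusted p = 0.0336), while the usual reporter gst-4 lay at 0.48 (adjusted p = 0.175). That list was drawn up with these calls known. Of 16 epidermal antimicrobial peptide genes 0 were called higher and 2 were called lower, while 1 was higher and 9 were lower at an unadjusted p under 0.05, against 15.9% and 11.5% of all tested probes. The called genes were nlp-34 at -0.77 ± 0.10 (adjusted p = 0.0113) and cnc-7 at -0.69 ± 0.10 (adjusted p = 0.0120), with a list median of -0.33 (limma, SE, n = 6 arrays each).

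The cnc-7 probe was above background on 2 of 6 CPF channels and 5 of 6 control channels. Leaving out CPF in Cy5 replicate 1 ended the calls of nlp-34 (adjusted p = 0.0853), cnc-7 and gst-38, and of the 7 genes called in these lists only gst-7 kept its call without each array in turn. The lists of related genes together held 3 genes called higher, all of them col genes, and 4 called lower. The plot of the gene lists shows dpy-3 as the called member of the furrow set.

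**Figure D5:**
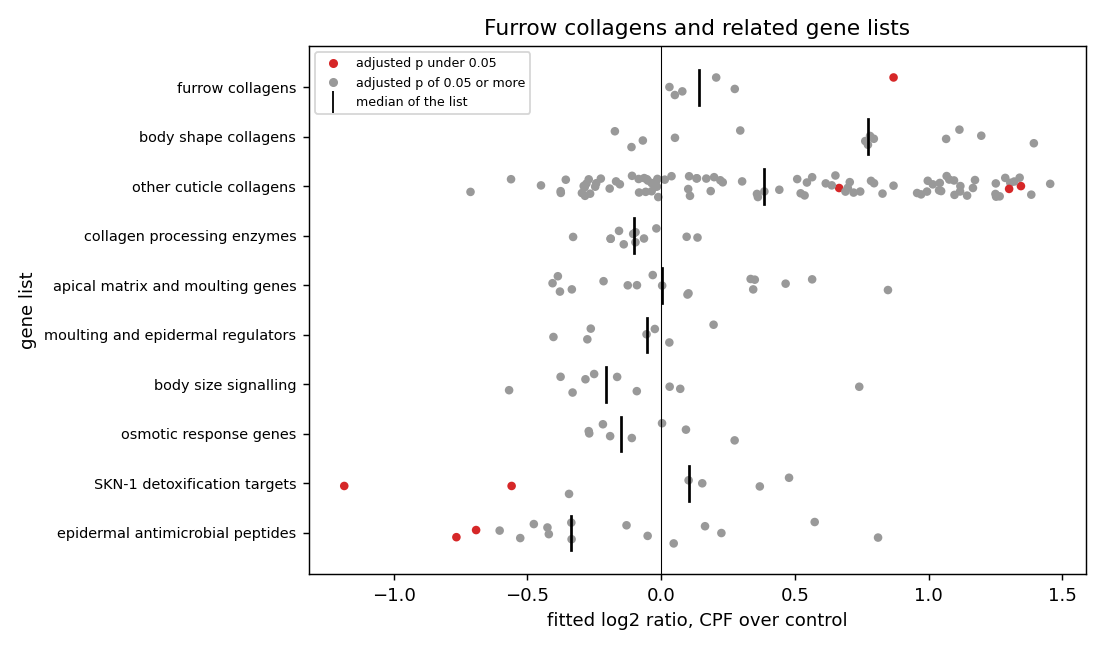
Fitted log2 ratio of CPF over control (horizontal axis) of each tested gene in the furrow collagen set and 9 related gene lists (vertical axis, spread at random within a list), with called genes in red and the list median as a black bar. The furrow collagens run from 0.03 to 0.87 with a median of 0.14, against 0.77 for the other body shape collagens.

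Markers of the tissue that makes these collagens gave no call. In limma, 0 of 5 tested epidermis markers passed, and 0 at an unadjusted p under 0.05, with a median of -0.09 and array medians between -0.58 and 0.27. The 3 tested seam cell markers had a median of 0.08, with 0 past either threshold. Of the markers of other cells, 2 of 13 major sperm protein genes (msp-50 and msp-63) were called higher, against 1.33% of all tested probes. At an unadjusted p under 0.05, 9 of the 13 were higher and 1 was lower, against 15.9% and 11.5% of all tested probes. Signal shared between the probes of these genes could not be checked, so the 13 may not be separate readings. The median log2 ratio over all 13 averaged 0.98 on the CPF in Cy5 arrays and -0.11 on the CPF in Cy3 arrays, a swing opposite in sign to that of the furrow collagens. Of 6 oocyte markers 1 (oma-2) and of 5 pharynx markers 1 (tnt-4) were called higher, with 3 and 1 higher at an unadjusted p under 0.05. Of 6 intestine, 6 muscle and 7 neuron markers 0 were called in limma, with 3, 2 and 3 lower at an unadjusted p under 0.05, against 11.5% of all tested probes. The part of these cell types in the values of the furrow collagens was not tested.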

How the data were processed

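RNA of whole worms was hybridised on 2-colour oligonucleotide arrays in a dye swap, with 6 biological replicates per the methods of the study. Scans were quantified by the authors in ScanArray Express. The deposited intensity per spot came with its local background and had no normalisation or subtraction. The deposited percent of saturated pixels was 0 for every member spot. A further deposited table held log2 ratios from limma 3.2.3 (version per the labels). It served only as an alternative because its columns matched arrays of the other orientation. Some of its cells are blank.

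Spots were named by sequence name (21382 probes) or gene number (31) with the RefSeq annotation of WBcel235, while 1077 kept their own name. The 742 control and blank spots were dropped. Background correction was by normexp with an offset of 50, followed by loess and Aquantile normalisation. Tested probes had a median over the local background plus 2 of its SDs in 6 or more of 12 channels. Because the study's model of single channels ignores the shared spot, ratios were fitted in limma 3.58.1 (R 4.3.3) with a CPF and a dye term (lmFit and eBayes, 2-sided, Benjamini-Hochberg, threshold 0.05), after a test on simulated data. Plots used matplotlib 3.10.9 (Python 3.11.15).

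The members and gene lists were chosen with earlier results of these data known. The brightest tested probe stood for a gene. Genes were named by a rule: all members, up to 4 called genes per direction of each list, the 2 with the smallest p where fewer than 2 were called, and the 5 most like the members and the 5 most like dpy-3. Outside it, gst-4, msp-50, msp-63, oma-2 and sqt-1 were named after values were seen. Alternatives covered background correction, normalisation, the filter, the dye term, replicate block, averaged same-numbered arrays, array weights, the study's model, the deposited table, single orientations and each array left out.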

Additional observations from a re-analysis of the deposited data

Results flagged for a closer look

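The mean log2 ratio on the CPF in Cy3 arrays exceeded that on the CPF in Cy5 arrays by 1.17 for dpy-10, by 0.78 for dpy-7 and by 0.72 for dpy-2, with every CPF in Cy3 array positive and every CPF in Cy5 array negative. Tested as the dye term in limma with Benjamini-Hochberg adjustment, the adjusted p was 0.248 for dpy-10, 0.477 for dpy-7 and 0.491 for dpy-2, so none of these differences passed. The dye orientation cannot be told apart from the slides and the animals. The dye effect of dpy-10 lay between -0.64 and -0.56 under each of 5 settings of background, spot statistic and normalisation.

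Of 35 named genes, 2 had an array far from their others, both times CPF in Cy3 replicate 1, and chance marks about 1 gene in 20. The log2 ratio of dpy-13 was 3.31 there, against 0.46 to 1.45 on the other arrays. That of tsp-15 was -0.70, against -0.21 to 0.05.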

How the results depend on the processing

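Signs here follow the scanner labels, to which the columns of the deposited table were reassigned. The median log2 ratio of the furrow collagens was 0.14 and was positive under 22 of 23 alternatives. Some alternatives could not move it: it stayed at 0.14 without normalisation between arrays, the filter or a dye term. The same held with the replicate block, with same-numbered arrays averaged and in the linear model of single channels. Counts of positive alternatives, for the median or for dpy-3, are thus no measure of robustness. From the deposited table the median was 0.11 with the columns reassigned and -0.11 by the labels of the table. The dpy-3 ratio there was 0.60 reassigned and -0.60 by those labels. The median of the furrow collagens was -0.19 with only the CPF in Cy5 arrays and 0.42 with only the CPF in Cy3 arrays. With the scanner labels, the dpy-3 ratio was positive under 22 of 22 alternatives that could give it, from 0.47 to 1.27, and its probe was not tested when all 12 channels had to be above background. The ratios ran from -0.33 to 0.39 for dpy-2, from -0.34 to 0.44 for dpy-7, from 0.06 to 0.35 for dpy-8, from -0.06 to 0.22 for dpy-9 and from -0.31 to 0.86 for dpy-10.

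The 386 called probes became 243 without background correction, 233 with plain subtraction, 54 with median centring, 1281 with scale normalisation, 256 with all 12 channels above background, 205 without a dye term, 165 with same-numbered arrays averaged, 8 in the linear model of single channels, 692 in the deposited table, 629 with only CPF in Cy5 arrays and 20 with only CPF in Cy3 arrays. With array weights, whose estimate did not converge and gave CPF in Cy3 replicate 2 a weight of 27.4, they became 5005. With an array left out the count ran from 58 without CPF in Cy5 replicate 1 to 1323 without CPF in Cy3 replicate 3, and was 81 and 94 without CPF in Cy5 replicates 2 and 3, and of the CPF in Cy3 arrays 806 without the first replicate and 77 without the second. The 7 called genes of the related lists became 4 with plain subtraction, 0 with median centring, 37 with scale normalisation, 4 without a filter, 3 without a dye term, 111 with array weights, 0 in the linear model of single channels, 14 in the deposited table, 26 with only CPF in Cy5 arrays, 0 with only CPF in Cy3 arrays, and 1 to 61 with an array left out. The cause of these changes was not tested. The study judged its model of single channels by an unadjusted p with a permutation estimate of false calls. The 8 probes at the adjusted threshold are thus not comparable with its own counts.

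Whether same-numbered arrays of both orientations shared more than a number is not settled. Their deviations from the orientation means correlated across probes at 0.103, -0.0788 and 0.271. Arrays 1 and 3 but not 2 correlated best with their own number. With the replicate block, 470 probes were called, 228 higher and 242 lower, 10 related genes were called, and the member median stayed at 0.14.

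For dpy-3, 2 of 6 control spots were not above local background. P-values measure the spread of these 6 arrays of pooled worms around the means of their dye orientations, as moderated by limma over probes. The difference between orientations is no part of that spread.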
